A study of Mus musculus with 4 samples.

Results

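Striatal projection neuron genes were followed on 4 arrays made from mouse brain tissue dissected as thalamus and hypothalamus at postnatal day 14. The striatum is not part of that tissue by its label, and lies beside it in the forebrain, so the genes were read as a measure of striatal signal on each array. The members are Ppp1r1b, Rgs9, Adora2a, Drd1, Drd2, Pde10a, Gpr6, Rarb and Meis2, taken by gene symbol. All 9 were matched through RefSeq accessions, by 12 of the 41174 probes that are not controls. On every array all 12 of these probes stood well above background. The 9 genes are a part of 21422 genes tested, where a gene without a symbol stands for its accession.

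The study compared mice reared in the dark with mice reared under standard lighting. Dark-reared mice were born to dams put under an opaque black cover 1 to 4 days before birth and stayed there, tended under dim red light, until sampling. Control mice lived in standard cages on a cycle of 12 hours of light a day. Each group had 2 samples, called biological replicates in the labels, with 1 one-colour (Cy3) Agilent array per sample. The strain, the sex and the number of animals behind a sample are not given in the labels, so p-values measure the spread between these samples.

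Spiny projection neurons are the output neurons of the striatum and make up most of its cells. They carry dopamine receptors and fall into a direct-pathway type, marked by the D1 receptor, and an indirect-pathway type, marked by the D2 and adenosine A2a receptors. Dopamine and adenosine act in these cells mainly through cyclic AMP, which is raised by D1 and A2a receptors and lowered by D2 receptors, and the retinoic acid receptor beta is a transcription factor of the developing striatum.

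Between 65.9% and 73.3% of probes were well above background on an array, and no spot was saturated. Signals are log2 values after the 75th percentile of each array was subtracted, so that 0 is the brightness of that percentile and 1 unit is a 2-fold difference. Within a group, replicate 1 is given before replicate 2, and 4 values in a row are dark-reared 1, dark-reared 2, control 1 and control 2. Values are not compared between probes, though the summed levels given later add them. Dark-reared 2 and control 2 shared slide 3, control 1 was on slide 1 and dark-reared 1 on slide 2. Samples of a group also differed in sex-linked transcripts. The brightest probe of Xist, the RNA of X inactivation, read 3.42 and -5.81 in the dark-reared pair and 3.79 and -6.48 in the control pair; it was well above background only in replicate 1 of each group. The brighter probe of the Y-linked Ddx3y, not well above background in control 1, read -0.32 and 1.07 in the dark-reared pair and -6.54 and 1.18 in the control pair.

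The striatal genes split the samples within each group and not between the groups. On each gene's brightest probe, every member was higher in dark-reared 1 than in dark-reared 2, by 1.78-fold for Meis2 to 4.25-fold for Ppp1r1b. The dimmer of 2 Adora2a probes ran the other way, at 0.54 and 1.48. Every member was also higher in control 2 than in control 1, by 1.99-fold for Pde10a to 2.69-fold for Drd2. On the log2 scale the median difference was 1.75 between the dark-reared samples and 1.31 between the controls. Between the groups the median difference over the 9 genes was 0.05. Over all genes tested the same medians were 0.00 for dark-reared 1 minus dark-reared 2, 0.02 for control 2 minus control 1 and -0.01 between the groups. In bulk tissue, fewer cells of a type and less RNA per cell cannot be told apart.

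**Figure D1:**
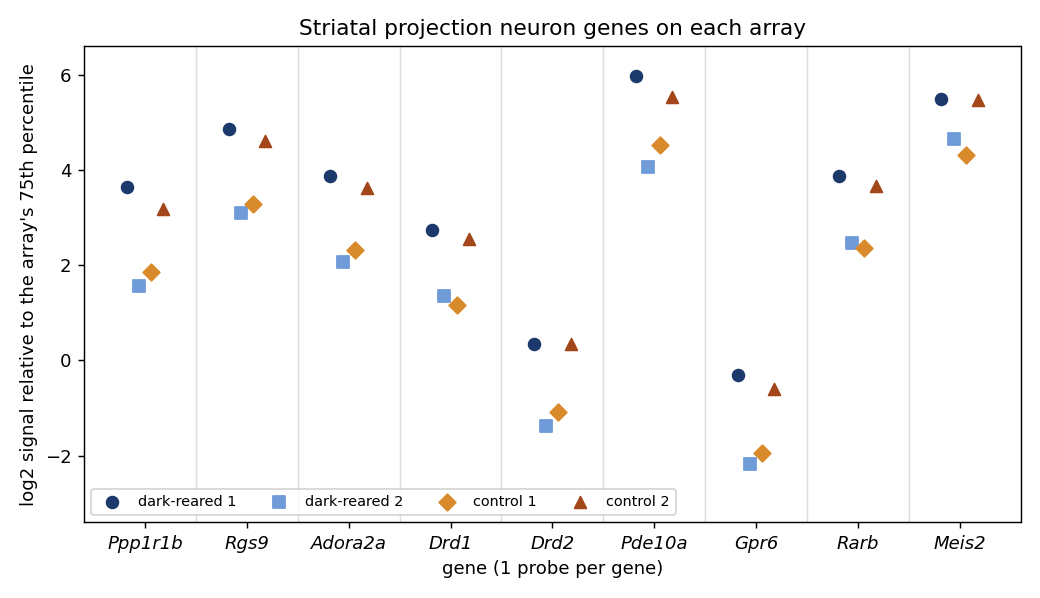
Log2 signal of the 9 genes (y axis, relative to the 75th percentile of the array) on each of the 4 arrays, 1 probe per gene; each point is 1 array. In every gene the points of dark-reared 1 and control 2 lie above those of dark-reared 2 and control 1.

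The order of the arrays was nearly the same in all 9 genes. On the probes used, dark-reared 1 and control 2 were both above dark-reared 2 and control 1 in 9 of 9 members. The same was seen in 25.3% of all genes tested. The highest array was dark-reared 1 in 8 members and control 2 in 1, Drd2, where the pair differed by 0.01. At the low end, dark-reared 2 was lowest in 6 members and control 1 in 3, which were Drd1, Rarb and Meis2. The highest and lowest arrays were at least 2-fold apart in 9 of 9 members, against 16% of all genes tested. The range over the 4 arrays ran from 1.17 for Meis2 to 2.09 for Ppp1r1b, with a median of 1.75, and the median over all genes tested was 0.42. A range as wide as that of Ppp1r1b was found in 3.20% of all genes tested, and one as wide as that of Meis2 in 12.0%.

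Both dopamine receptors of the list were high in dark-reared 1 and control 2. Drd1 (NM_010076) encodes the D1 receptor of direct-pathway neurons, which couples to the olfactory type of stimulatory G protein in the striatum. Its log2 signal was 2.73 and 1.35 in the dark-reared pair and 1.17 and 2.54 in the control pair. The dark-reared samples were 1.38 apart and the controls 1.37 apart, while the group means differed by 0.19. Drd2 (NM_010077), the inhibitory D2 receptor of indirect-pathway neurons, which is also made by dopamine neurons and by the pituitary, read 0.34, -1.38, -1.08 and 0.35 in the same order. Drd2 was the member with the largest gap between the controls, 1.43, and the lowest group difference, -0.16. Both receptors thus had 1 high and 1 low sample in each group, and the groups overlapped.

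The other receptors of indirect-pathway neurons followed the same order. Adora2a (NM_009630), which encodes the adenosine A2a receptor and opposes D2 receptor signalling, read 3.87 and 2.06 in the dark-reared pair and 2.31 and 3.62 in the control pair. The mean of the dark-reared pair was 2.97 ± 1.28 (SD, n = 2). The control mean was 2.97 ± 0.93 (SD, n = 2), and the means differed by 0.0016. Gpr6, an orphan receptor that raises cyclic AMP without an added ligand and is strongest in indirect-pathway neurons (NM_199058), read -0.30, -2.18, -1.96 and -0.61 in the same order. It was 3.68-fold higher in dark-reared 1 than in dark-reared 2 and 2.54-fold higher in control 2 than in control 1. On the probes used, the indirect-pathway receptors Drd2, Adora2a and Gpr6 differed by 1.72, 1.81 and 1.88 between the dark-reared samples, against 1.38 for Drd1. The dimmer Adora2a probe differed by -0.94 there. Drd1 was the only direct-pathway receptor compared, in a single pair of samples, and a difference between the pathways was not tested. Between the controls all 4 receptors differed by 1.31 to 1.43 on the probes used.

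The members that act inside the cell after the receptors had the same high and low samples. Ppp1r1b (NM_144828) encodes DARPP-32, which turns into an inhibitor of protein phosphatase 1 when protein kinase A phosphorylates it. Its log2 signal was 3.65 and 1.56 in the dark-reared pair and 1.86 and 3.17 in the control pair, the widest range of the 9 genes. Rgs9 (NM_011268) encodes a regulator that speeds the turning off of G proteins, with a long form in the striatum and a short form in photoreceptors, and read 4.85, 3.09, 3.28 and 4.59 in the same order. Pde10a (NM_011866), the phosphodiesterase that breaks down cyclic nucleotides in spiny neurons, read 5.98, 4.06, 4.53 and 5.52. In all 3 genes dark-reared 1 was highest, followed by control 2, control 1 and dark-reared 2. On the probes used, Pde10a had the smallest gap between the controls of the 9 genes (0.99), and Ppp1r1b the largest between the dark-reared samples (2.09). The other Pde10a probe had a control gap of 1.38.

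The transcription factors had the narrowest ranges. Rarb (NM_011243), the retinoic acid receptor beta, read 3.87 and 2.46 in the dark-reared pair and 2.36 and 3.65 in the control pair. Its probe was spotted 10 times on each array, and the SD between spots was 0.05, 0.05, 0.02 and 0.04 on the log2 scale in that order, with 1 spot of control 1 left out as an outlier. That spread is technical only. The dark-reared samples were 1.41 apart and the controls 1.29 apart. Meis2 (NM_010825), a homeodomain factor found in the striatum and in other parts of the developing brain, read 5.48, 4.65, 4.32 and 5.47. It was the only member whose gap was smaller between the dark-reared samples (0.83) than between the controls (1.15).

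Upstream sequences from RefSeq (GRCm38.p6) were found for 7 of the 9 genes, in 9 windows, and were read for 250 bases before the annotated start. They are shown for a retinoid target, an indirect-pathway receptor and the D2 receptor. Shared control of the members was not tested. Capitals mark matches to a searched motif on either strand. The search covered the cyclic AMP response element TGACGTCA and its shorter form TGACG, which overlap. It also covered TGACAG, a core bound by Meis factors, the TATA box written TATAAA, and the GC box written GGGCGG. The last was the retinoid direct repeat with a 5-base spacing.
Rarb, chr14:16575477-16575726, minus strand: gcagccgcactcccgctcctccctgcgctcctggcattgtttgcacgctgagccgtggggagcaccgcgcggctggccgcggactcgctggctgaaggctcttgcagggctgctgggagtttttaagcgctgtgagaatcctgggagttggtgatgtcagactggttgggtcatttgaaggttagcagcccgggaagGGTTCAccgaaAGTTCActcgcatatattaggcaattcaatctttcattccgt
Gpr6, chr10:41072291-41072540, minus strand: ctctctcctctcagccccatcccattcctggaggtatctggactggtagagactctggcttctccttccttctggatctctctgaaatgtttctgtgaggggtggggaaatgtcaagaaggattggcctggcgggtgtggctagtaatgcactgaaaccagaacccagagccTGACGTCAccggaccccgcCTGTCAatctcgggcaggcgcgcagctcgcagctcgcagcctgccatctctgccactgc
Drd2, chr9:49340153-49340402, plus strand: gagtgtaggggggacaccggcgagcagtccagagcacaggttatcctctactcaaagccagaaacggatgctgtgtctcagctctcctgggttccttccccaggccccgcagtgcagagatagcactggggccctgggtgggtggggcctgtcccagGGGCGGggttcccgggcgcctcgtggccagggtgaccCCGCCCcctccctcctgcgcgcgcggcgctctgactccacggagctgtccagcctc

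The Rarb window held the retinoid direct repeat 53 to 37 bases before the start, and no other member window did. Of 32851 windows in the table, 0.0883% held that repeat. The window of Gpr6 held TGACGTCA 78 to 71 bases before the start (1.55% of all windows) and TGACAG on the other strand (15.9%). Drd2 had GGGCGG once on each strand, and the motif was found in 4 of the 9 member windows and in 32.7% of all windows. TATAAA lay 152 to 147 bases before the start in Meis2 and 195 to 190 bases before it in Rgs9 (12.4% of all windows). TGACG lay in the window of Gpr6 alone among the members (17.8% of all windows). No motif was shared by all member windows, and the matches describe these letters only.

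None of the 9 genes differed between dark-reared and control mice beyond the spread of the samples. The comparison asks whether rearing without visual input changes expression. With limma, 0 of 21422 genes passed a Benjamini-Hochberg adjusted p of 0.05 (0%), and 268 (1.25%) had an unadjusted p under 0.05, none of them a member. For each member the adjusted p was 1.00. The members' differences ran from -0.16 for Drd2 to 0.19 for Drd1, with standard errors from 0.52 to 0.89. In 7 members the difference was above 0, against 48.2% of all genes tested. Groups that did not overlap were found for 0 of 9 members and for 19.1% of all genes tested (9.53% with dark-reared samples higher and 9.58% lower). Groups at least 2-fold apart without overlap were found for 0 members and 1.2% of all genes tested. For a single gene the smallest two-sided p that an exact permutation test can give with this many samples is 0.333.

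The precision leaves room for sizeable differences. For Ppp1r1b the group difference was 0.09 with a standard error of 0.89, and the 95% interval of the limma fit ran from -2.39 to 2.56. Rarb differed by 0.16 with an interval from -1.78 to 2.10, and Meis2, the member with the smallest standard error, by 0.17 with an interval from -1.29 to 1.64. In each of the 9 genes the group difference was at most 0.176 of the mean gap between samples of the same group. Within slide 3, which held both groups, all 9 members were lower in dark-reared 2 than in control 2, by a median of -1.50. That single pair ranged from -0.82 for Meis2 to -1.73 for Drd2 and has no test. The sign of the median thus changed between the full comparison and the shared slide.

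**Figure D2:**
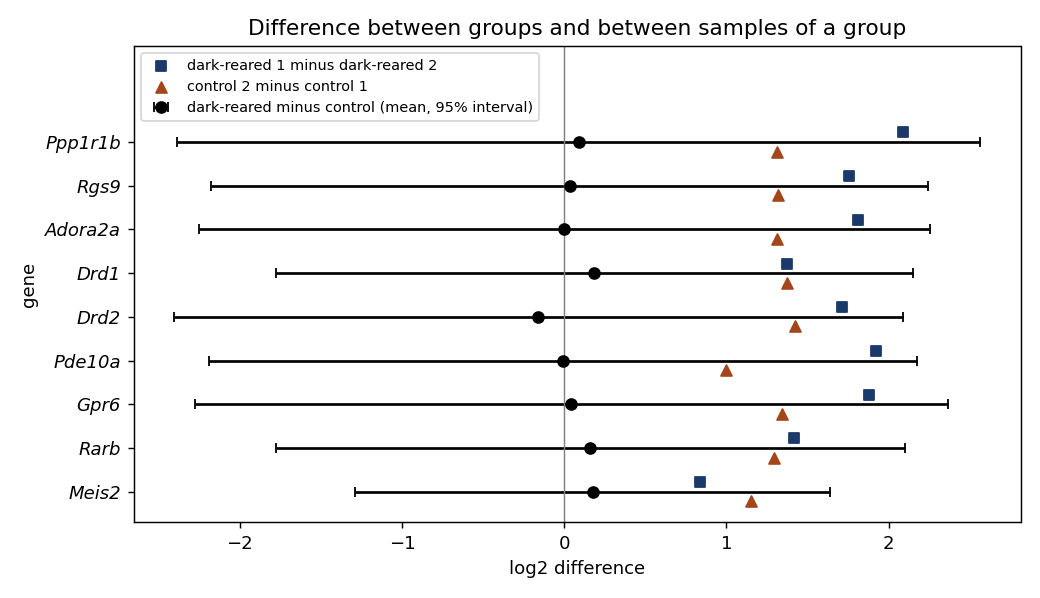
Log2 differences (x axis) for each of the 9 genes: the group difference with its 95% interval from limma (n = 2 per group), and the gap between the samples of each group. The group differences lie near 0 with intervals wider than 1 on either side, while every gap between samples of a group lies above 0.8.

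Of the 3 members with 2 probes, Pde10a and Meis2 had dark-reared 1 and control 2 on top with both probes, and Adora2a with the brighter probe only. The dimmer Pde10a probe read -1.31 and -2.85 in the dark-reared pair and -2.62 and -1.24 in the control pair. Its gaps within the groups were 1.55 and 1.38, against 1.92 and 0.99 for the brighter probe, and control 2 was highest. Meis2's other probe read 5.23, 4.48, 3.98 and 5.23 in the same order, with control 2 highest by less than 0.01. Its gaps within the groups were 0.75 and 1.25, against 0.83 and 1.15 for the brighter probe. The dimmer Adora2a probe, assigned to the same accession, read 0.54 and 1.48 in the dark-reared pair and 1.01 and 1.72 in the control pair. It was therefore lowest where the brighter probe was highest, with a gap of -0.94 between the dark-reared samples against 1.81 for the brighter probe. Between the controls both probes were higher in control 2, by 0.71 and 1.31. The description of Adora2a above rests on the brighter probe.

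**Figure D3:**
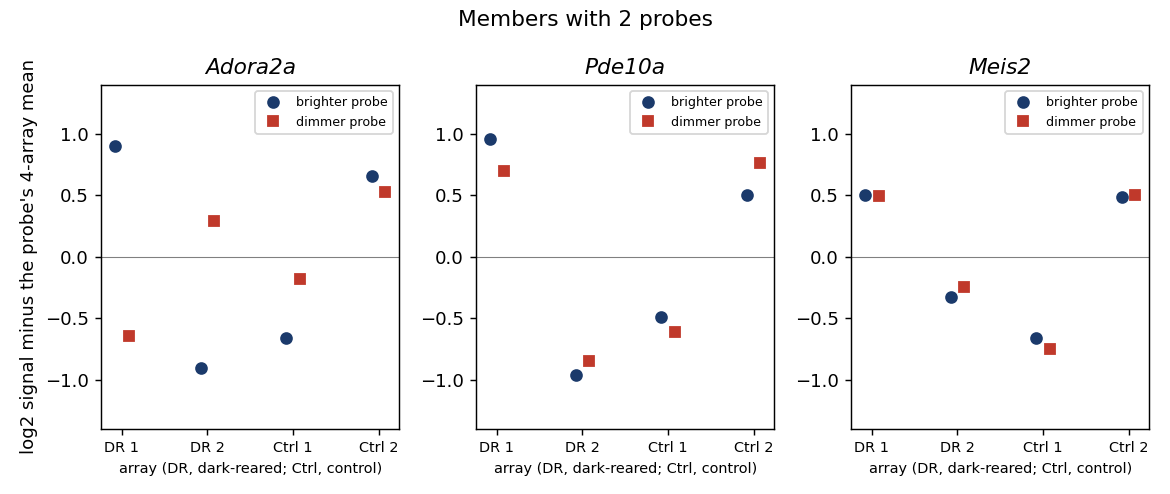
Log2 signal minus the 4-array mean of the probe (y axis) for both probes of Adora2a, Pde10a and Meis2 on each array. Both probes of Pde10a and of Meis2 have the same sign on every array, and those of Adora2a take opposite signs in dark-reared 1 and dark-reared 2.

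Most other genes of striatal projection neurons that were tested moved over the arrays with the members. Of a list of 34 such genes 30 had a named probe and were tested, and Pdyn, Gpr52, Scn4b and Sp9 had none. The list was chosen with earlier results of these data known, so its counts are a description only. Dark-reared 1 and control 2 were both above the other samples in 24 of the 30, against 25.3% of all genes tested. A range of at least 2-fold was found in 19 of 30, against 16% of all genes tested. None passed in limma between the groups, with 18 higher and 12 lower in dark-reared mice and a median of 0.02. Groups did not overlap for 1 of the 30, against 19.1% of all genes tested. That gene was Six3, a homeobox gene. It read -2.28, -2.33, -1.62 and -1.91. The widest range was that of Rasd2, which encodes the striatal small G protein Rhes, at 1.55 and -0.99 in the dark-reared pair and -0.26 and 1.11 in the control pair. Actn2, an actin cross-linking protein, read 2.20, 0.09, 0.57 and 1.94. Penk, the enkephalin precursor of indirect-pathway neurons, read 7.55, 6.06, 6.26 and 7.56. The 6 genes without the order, picked out after their values were seen, were Dlx5, Isl1, Six3, Zfp503, Slc32a1 and Ikzf2. Slc32a1, the vesicular transporter of all GABA neurons, kept between 6.44 and 6.83.

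**Figure D4:**
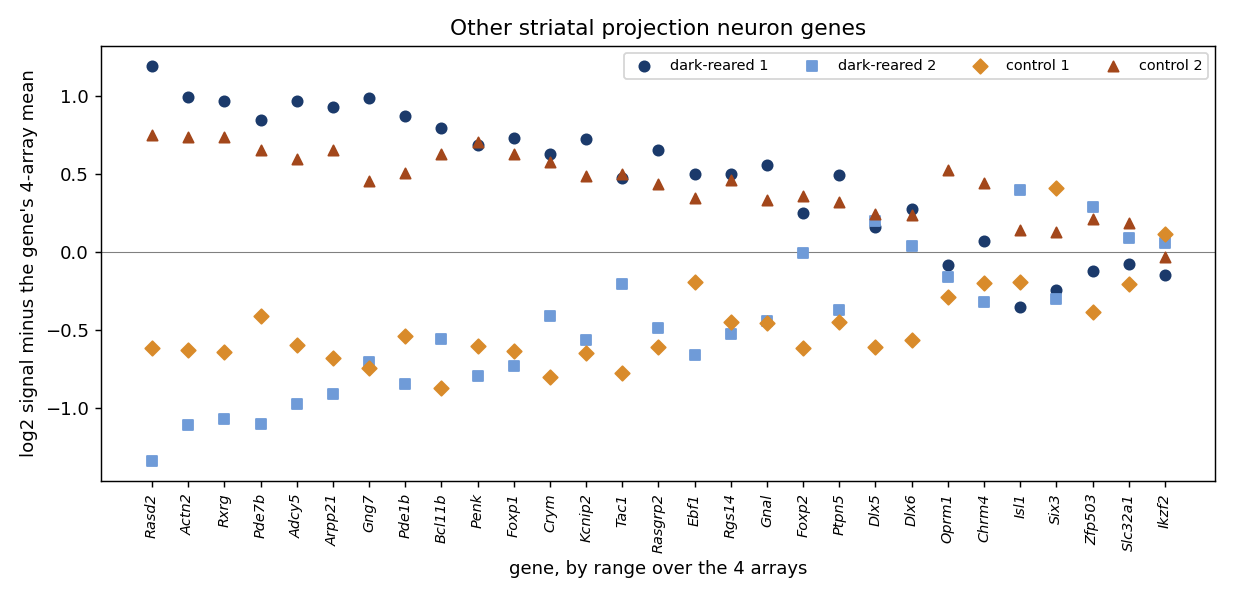
Log2 signal minus the 4-array mean of the gene (y axis) for 29 of the other striatal projection neuron genes on each array, sorted by range. In 23 of these 29 genes the points of dark-reared 1 and control 2 lie above those of dark-reared 2 and control 1. That order was shown by 25.3% of all genes tested.

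The genes most like the members over the 4 arrays were found by the root mean square difference from the mean centred profile of the 9 genes, which was 0.85 and -0.79 in the dark-reared pair and -0.67 and 0.61 in the control pair. The search covered 13518 other named genes that were well above background on all arrays, over 4 samples. The 10 nearest were Col22a1, Fblim1, Epor, Foxp1, Arpp21, Slc35d3, Egr1, B3gnt2, Pde1b and Tiam2, with differences of 0.05 to 0.09. Among them Foxp1 is a transcription factor of spiny neurons, Arpp21 a phosphoprotein regulated by cyclic AMP, and Pde1b a calmodulin-dependent phosphodiesterase. Arpp21, for example, read 5.93 and 4.10 in the dark-reared pair and 4.32 and 5.66 in the control pair. The immediate early gene Egr1 read 4.09, 2.47, 2.46 and 3.96. Of the other striatal list 14 of 30 genes were among the nearest 100. For single members the nearest gene was Phex for Ppp1r1b, Col22a1 for Rgs9, Arpp21 for Adora2a and Gpr6, Ankrd33b for Drd1 and Rarb, Mhrt for Drd2, Nrgn for Pde10a and Hvcn1 for Meis2. The next nearest included genes of the other striatal list, Adcy5 for Ppp1r1b, Bcl11b for Drd1 and Penk for Drd2. They also included genes outside that list, such as Asb11 for Ppp1r1b, Ngef for Drd1, Cyp2s1 for Drd2 and Nab2 for Meis2. Asb11 was nearer to Ppp1r1b than Adcy5 was, and Ngef nearer to Drd1 than Bcl11b was. Among the members themselves the closest pair was Adora2a and Rgs9 (0.03) and the most distant Meis2 and Ppp1r1b (0.45).

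The wider pathways around the members showed no gene past the test either. A list of dopamine and cyclic AMP signalling genes held 30 tested genes, 7 of them members. Of the other 23, 10 had a difference above 0 and 13 below 0, 0 passed in limma, and the median was -0.01. Dark-reared 1 and control 2 were both on top in 13 of these 23, against 25.3% of all genes tested. Adcy5, the adenylyl cyclase of spiny neurons, read 2.80 and 0.86 in the dark-reared pair and 1.24 and 2.43 in the control pair. Adcy5 is also in the other striatal list. Among the dopamine and cyclic AMP genes, Drd4 and Drd5 had the largest group differences, -0.43 and -0.38, with standard errors of 0.48 and 0.38. The receptor Drd5 had another order, at -3.60, -2.99, -2.52 and -3.30. In the list of retinoid and Meis genes, 14 of 17 were tested, 2 of them members. Rxrg, the retinoid X receptor gamma, read 5.33, 3.30, 3.73 and 5.10, like Rarb high in dark-reared 1 and control 2. Rxrg is also in the other striatal list. Aldh1a2, which makes retinoic acid, had another order, at -3.14, -0.66, -2.09 and -2.06. Of the 12 retinoid and Meis genes that were not members 7 were higher, 5 lower and 0 passed. Dark-reared 1 and control 2 were both on top in 6 of these 12. Rxra, another retinoid X receptor, differed by -0.38 with a standard error of 0.21.

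Markers of the dissected regions moved over the arrays as well, mostly the other way. The summed linear level of the 9 members, in units of the 75th percentile, was 187 and 66.0 in the dark-reared samples and 69.4 and 156 in the controls. For 17 of 18 thalamus markers, those tested, it was 24.2 and 77.3 in dark-reared samples and 95.8 and 33.8 in controls. Slc17a6, the glutamate transporter of thalamic neurons, read -1.003 and 3.43 in the dark-reared pair and 3.89 and 1.64 in the control pair. For 11 of 18 hypothalamus markers it was 15.7 and 79.6 in dark-reared samples and 92.8 and 46.7 in controls. Such sums are weighted to bright probes, such as Hap1 of the hypothalamus list, which read 3.41, 5.49, 5.14 and 4.78. The median deviation from the gene's 4-array mean was -0.95, 0.31, 1.14 and -0.45 for thalamus markers. For hypothalamus markers it was -1.46, 0.58, 1.01 and -0.02. Dark-reared 1 was lowest in 12 of the 17 thalamus markers and in 7 of the 11 hypothalamus markers. The oxytocin gene Oxt read -3.31, 2.50, 3.97 and 2.38. The markers Agrp, Fezf1, Nr5a1, Otp, Pmch, Sim1 and Six6 were too dim to be tested. The part of these marker differences in the members' pattern was not tested.

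Markers of other neurons and cell types were set beside the members by their median deviation from the 4-array mean. Members deviated by 0.89 and -0.90 in the dark-reared pair and -0.68 and 0.61 in the control pair. Pallial neuron markers (18 of 18 tested) deviated by 0.40, 0.17, -0.26 and -0.14 in that order. This pallial list was mixed, and 13 of its 18 genes ranged at least 2-fold, against 16% of all genes tested. Its summed level, weighted to bright probes, was 250, 89.6, 110 and 198, high in the same samples as the members. Nrgn read 7.51, 5.62, 6.12 and 7.04, while Neurod6 read -1.29, -0.42, 0.05 and -2.76. Telencephalic and subpallial factors (8 of 8) stood at 0.22, 0.16, -0.40 and 0.13. Markers of striatal interneurons and basal forebrain neurons (12 of 12) stood at 0.05, -0.19, -0.39 and 0.36. Midbrain dopamine neuron markers (7 of 10) stood at -0.17, -0.39, 0.36 and 0.15, and En1, Foxa2 and Lmx1b were too dim to be tested. Oligodendrocyte markers (7 of 8) were lowest in dark-reared 2 in 7 of 7, at 0.70, -1.42, 0.81 and -0.07. Choroid plexus markers (7 of 8) were lowest in control 2 in 7 of 7, at 1.09, 0.34, 0.94 and -2.23. Microglia markers (8 of 8) stood at 0.20, -0.10, -0.35 and 0.27, endothelial markers (7 of 7) at 0.10, -0.10, -0.09 and 0.08, and astrocyte markers (8 of 8) at -0.06, 0.05, 0.02 and -0.08. Pituitary markers (4 of 7) stood at -0.95, 0.17, 0.25 and 0.67. Dark-reared 1 and control 2 were both on top in 25.3% of all genes tested. The same order was found in 7 of 12 interneuron and basal forebrain markers, 6 of 8 microglia and 5 of 7 endothelial markers. It was found in 5 of 18 pallial and 2 of 8 telencephalic markers, near the share of all genes, and in 1 of 8 astrocyte markers. That order was found in 0 of the tested markers of thalamus, hypothalamus, midbrain dopamine neurons, oligodendrocytes, choroid plexus and pituitary. The share of each cell type in the members' signal was not tested.

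**Figure D5:**
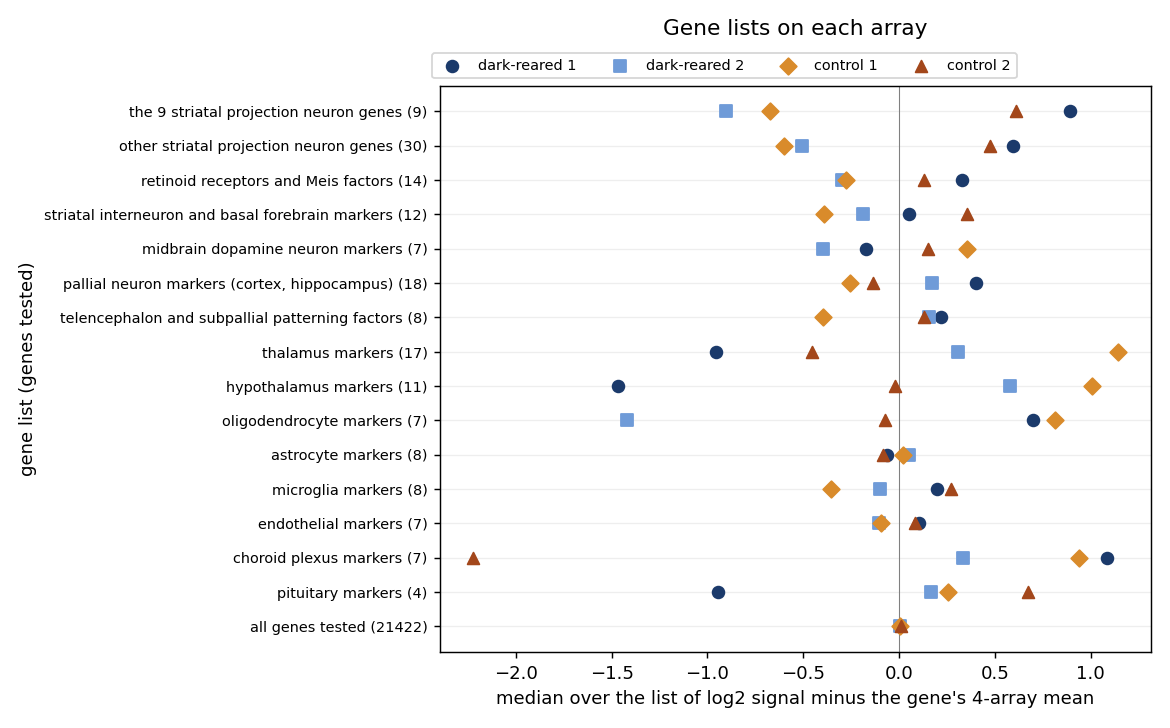
Median over each gene list of the log2 signal minus the 4-array mean of the gene (x axis), for each of the 4 arrays. The 9 striatal genes and the other striatal list are high in dark-reared 1 and control 2, thalamus and hypothalamus markers are lowest in dark-reared 1 and highest in control 1, and the medians of all genes tested lie near 0.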

How the data were processed

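Spot intensities came from Feature Extraction, version 10.7.3.1 in the file headers and 10.7 in the submitters' processing notes. The deposited processed signal is an intensity after background subtraction and detrending, not scaled across arrays, per the file headers. A table of log2 values that the authors deposited has a median of 6.84 on all 4 arrays; its normalization was not given in the sources used here, and it served as an alternative. Outlier spots were left out, spots of a probe averaged on the log2 scale, and the 75th percentile over the probes of the array (764 to 794) subtracted. Symbols came from RefSeq accessions (GRCm38.p6 names; the array annotation is mm9): 26918 of 41174 probes got 1 symbol. A probe had to be well above background in every sample of 1 group or the other (28444 were), and the brightest probe stood for a gene. The group comparison used limma (version 3.58.1, R 4.3.3), a linear model with moderated variances. Its p-values were adjusted by Benjamini-Hochberg over 21422 genes. A check on simulated data with independent noise required only that estimated differences had the right mean size, and set no condition on p-values. The 4 arrays limit the precision.

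The members and lists were chosen with earlier results of these data known. Named genes are the members, per list the 2 with the widest range and the 2 with the largest group difference, and the 10 genes nearest to the members' mean profile and 3 nearest to each member, the last among genes with a range of at least 0.5. Likeness and list medians are descriptions with no test. Alternatives covered scaling, background, the deposited values, filters, probes, the variance prior, blocking on replicate number or on slide, and leaving out single arrays. The spot signal for normexp was the median, since the files hold no mean. A few genes that this rule names are not reported here.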

Additional observations from a re-analysis of the deposited data

How the results depend on the processing

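The count of 0 genes past the test held under every alternative with a test, as did the members' order of arrays, with dark-reared 1 and control 2 above the others in 9 of 9 genes under each of 7 alternative settings that keep 4 arrays and change the members' values. Their ranges then ran from 1.01 to 2.13. The 257 genes at least 2-fold apart without overlap became 151 with normexp on median signals, 23 with normexp after outlying local backgrounds were replaced (chosen after seeing the data), 811 without the filter, 78 when all arrays had to be well above background and 528 to 884 with 1 array left out. The replicate block left the members' median at 0.05, and each group difference as it was, since the design is balanced. Within the shared slide a single pair has no overlap to judge, and 6.37% of genes were at least 2-fold apart there. Same-numbered samples had only a weak tendency to deviate oppositely (correlation -0.16 across genes). The crossed replicate block, added after seeing the data, also gave 0 calls.

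The members' median of 0.05 became -1.50 with slide as a block and lay between -0.89 and 0.91 with 1 array left out. Within the slide the sign turned for Ppp1r1b (-1.61), Rgs9 (-1.50), Adora2a (-1.56), Drd1 (-1.19), Gpr6 (-1.57), Rarb (-1.19) and Meis2 (-0.82). Adora2a was -0.17 as the mean of its probes. With replaced backgrounds Adora2a was -0.0021 and Rgs9 -0.0105. Pde10a was 0.0251 with median scaling, 0.0339 with quantile normalization, 0.0267 with the deposited values and 0.10 with normexp. Leaving out 1 array turned every member: Ppp1r1b lay between -0.95 and 1.13, Rgs9 between -0.84 and 0.91, Adora2a between -0.90 and 0.91, Drd1 between -0.50 and 0.87, Drd2 between -1.02 and 0.70, Pde10a between -0.97 and 0.95, Gpr6 between -0.89 and 0.98, Rarb between -0.55 and 0.87, and Meis2 between -0.40 and 0.75, all at an adjusted p of 1.00 in limma. Without dark-reared 1 or control 1 the members' differences were below 0, and without dark-reared 2 or control 2 above 0. With slide as a block no residual degrees of freedom remain, so it has no test. Normexp on median signals moved the median of all genes from -0.01 to -0.12, and with replaced backgrounds it was -0.01.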
